A study of Mus musculus with 3 samples.

Results

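Excitation-contraction coupling is the process by which skeletal muscle turns an electrical signal at its surface into calcium release inside the fibre. The genes described here are 10 genes of that machinery, taken by symbol: Ryr1, Ryr3, Cacna1s, Cacnb1, Jph1, Jph2, Casq1, Casq2, Trdn and Stac3. All 10 are among the 20937 gene symbols with counts in this RNAseq series of the mouse incisor enamel organ, the epithelium that forms enamel. Every one of them had its lowest level in the Stim1 cKO library. For this and later counts of genes lowest or highest in Stim1 cKO, the share over all genes was not counted. The gap to the controls ran from 9.36-fold and 11.8-fold for Casq2 down to 1.23-fold and 1.41-fold for Trdn.

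The series has 3 libraries from mice at 4 weeks of age, with 1 library per genotype. Where 3 values are listed for a gene, they stand in the order Stim1 cKO, Stim1 HT, Stim1 Ctrl. Stim1 cKO was Stim1 fl/fl with the AmelX-iCre transgene, Stim1 HT was Stim1 fl/wt with the same transgene, and Stim1 Ctrl was Stim1 fl/fl without Cre. All 3 genotypes therefore carried at least 1 floxed Stim1 allele, and the amelogenin promoter drives the Cre in ameloblasts. RNA came from the whole enamel organ, although the labels give ameloblasts as the cell type, and whether the 1 sample behind each library came from a single mouse is not given in the sources used here. Because no genotype was replicated, how far mice of the same genotype vary is unknown and no value has a replicate check.

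The libraries held between 20216507 and 28265960 counts. Levels are given as CPM, counts relative to library size after TMM scaling, and 3 counts, taken as the limit of detection, lie between 0.117 and 0.152 CPM. Stim1 itself measured 72.8, 129 and 186 CPM. The 7 ameloblast markers summed to 4457, 31544 and 23273 CPM, but they did not move together. In Stim1 cKO, 4 of the 7 were below both controls and 2 were above both. Amelx, the largest part of the sum, measured 2065, 20016 and 14088 CPM, whereas Odam measured 694, 196 and 75.1 CPM. The Stim1 cKO library also stood apart in genes of other tissues. The 10 neuron markers, such as Snap25, summed to 1097, 287 and 244 CPM. Wider still were the gaps of Gnat1, the transducin of rods (177, 0.102 and 0.194 CPM, its controls at 2 and 5 counts), and Sag, the rod arrestin (109, 1.17 and 0.466 CPM). The study's methods name male mice, but Xist, the RNA of the inactive X chromosome of female cells, had 10897, 36 and 1 counts, or 450 CPM in Stim1 cKO. The Y-linked gene Ddx3y was present in every library at 40.9, 80.6 and 80.0 CPM. The Stim1 cKO library thus held both Xist and Y-linked RNA and went against the stated sex, and the part of this in the results was not tested. Differences between these libraries can therefore follow tissue content or sex as well as genotype, and these cannot be told apart. In RNA from a whole organ, fewer muscle cells and less RNA per muscle cell also cannot be told apart.

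At the triad of a muscle fibre, an inward fold of the surface membrane meets the calcium store, the sarcoplasmic reticulum. The voltage sensor CaV1.1 (Cacna1s), with its beta subunit (Cacnb1) and the adaptor STAC3, opens the ryanodine receptor RYR1, and calcium leaves the store. Calsequestrins (Casq1, Casq2) buffer calcium inside the store, triadin (Trdn) ties calsequestrin to the release channel, and junctophilins (Jph1, Jph2) hold the membranes together. STIM1 is a calcium sensor of the same kind of store, where it opens ORAI channels for refilling, in muscle as in other tissues.

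The Stim1 HT and Stim1 Ctrl libraries served together as controls for Stim1 cKO, the grouping of the study's methods. They were compared by quasi-likelihood in edgeR over 18702 genes. Calls needed a fold change over 2 with an adjusted p under 0.01. The gap between the controls, which are of different genotypes, is the one spread between libraries that the test had. edgeR called 0 of the 10 genes, as it called 0.0% of all genes lower and 0.0749% higher. At an unadjusted p under 0.05, 8 of the 10 were lower, where 13.4% of all genes were. At an adjusted p under 0.05 with a fold over 2, 6 of the 10 were lower against 2.88% of all genes. DESeq2 called 7 of the 10 lower against 5.26% of the 17283 genes it tested. Without the filter on low counts, edgeR called 4 of the 10 (Ryr3, Jph2, Casq1 and Casq2) against 1.05% of all 20937 genes. The median log2 fold change of the 10 genes was -1.94, beside -0.01 over all genes tested.

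The plot of the coupling genes by library shows the 3 levels of each gene. Read as single libraries with no test, 7 of the 10 genes were more than 2-fold below each control, beside 8.23% of all genes, and the other 3 were Ryr1, Cacnb1 and Trdn. Against Stim1 HT alone 7 were more than 2-fold lower (10.6% of all genes), and against Stim1 Ctrl alone 9 were (12.7%).

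**Figure D1:**
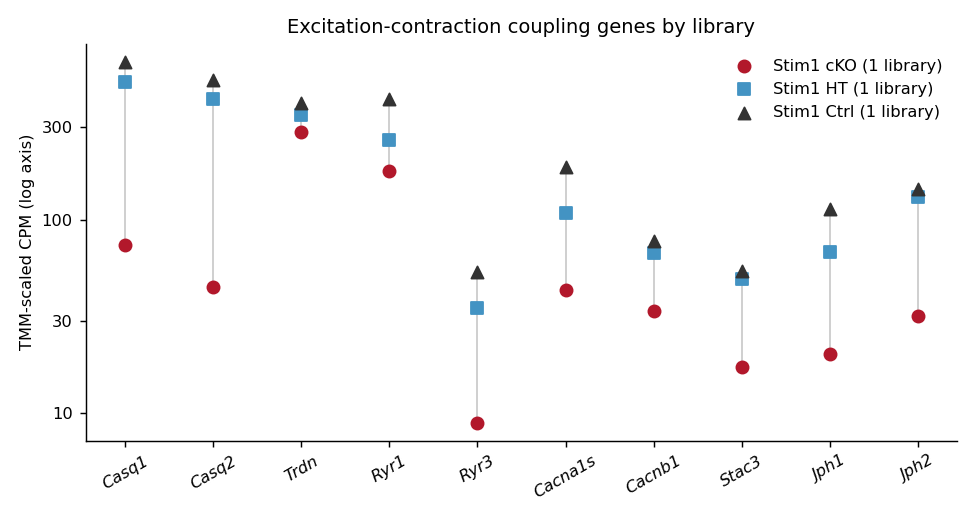
TMM-scaled CPM (log axis) of the 10 excitation-contraction coupling genes, with 1 point per library and a line spanning the 3. Stim1 cKO is the lowest point for every gene, furthest from the controls for Casq2 (44.8 CPM against 419 and 527) and nearest for Trdn (284 against 348 and 402).

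Promoter sequence was matched for 6 of the 10 genes, from RefSeq on GRCm38.p6, as the 250 bases before and 50 after the start of the gene. An E-box, the letters CANNTG that myogenic factors such as MYOD1 bind, was searched on both strands (it reads the same on either). Of these 6 genes, 5 held one in an entry, beside 72.3% of all 32851 promoters. The 6 genes had 8 entries, and the shares of all promoters are per entry and not per gene. The motif of MEF2, a factor of muscle gene expression, searched on both strands as well, was found in 1 of the 6, Casq2, and in 3.19% of all promoters, and it did not overlap an E-box there. Capitals mark E-boxes and the MEF2 match. Casq2 and Casq1 are shown because they were furthest below the controls, and Ryr1, with no match, because it was the nearest to the controls of the 6. A match here describes letters in this window and not a bound site.
Casq2 promoter, chr3:102086165-102086464, plus strand: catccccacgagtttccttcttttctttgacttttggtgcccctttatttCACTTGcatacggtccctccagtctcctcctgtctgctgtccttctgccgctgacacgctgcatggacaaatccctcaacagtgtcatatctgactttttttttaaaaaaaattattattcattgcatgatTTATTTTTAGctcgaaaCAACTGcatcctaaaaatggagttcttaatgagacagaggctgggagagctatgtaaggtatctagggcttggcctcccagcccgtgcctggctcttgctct
Casq1 promoter, chr1:172219846-172220145, minus strand: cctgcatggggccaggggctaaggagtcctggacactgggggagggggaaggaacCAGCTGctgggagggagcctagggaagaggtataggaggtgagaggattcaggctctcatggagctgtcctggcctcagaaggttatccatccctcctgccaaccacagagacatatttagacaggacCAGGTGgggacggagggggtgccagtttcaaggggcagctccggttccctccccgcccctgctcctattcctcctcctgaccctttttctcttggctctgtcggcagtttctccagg
Ryr1 promoter, chr7:29125102-29125401, minus strand: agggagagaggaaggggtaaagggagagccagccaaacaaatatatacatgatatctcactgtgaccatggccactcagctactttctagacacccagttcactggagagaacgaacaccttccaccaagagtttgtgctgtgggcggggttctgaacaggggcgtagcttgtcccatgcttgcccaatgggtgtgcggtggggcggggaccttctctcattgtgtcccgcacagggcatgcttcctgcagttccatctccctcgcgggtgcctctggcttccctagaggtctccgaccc

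Among the coupling genes, the calsequestrin genes had the widest gaps. Casq2 encodes the calsequestrin of heart and of slow skeletal fibres, and lies at chr3:102086415-102146514 on the plus strand (GRCm38, GENCODE M21). Its counts were 1085, 8260 and 13564, or 44.8, 419 and 527 CPM. The controls lay close together and Stim1 cKO far below both. The edgeR log2 fold change was -3.40 (SE 0.39, derived from the F statistic, as for all genes here), with an adjusted p of 0.0184. Casq1, the main calsequestrin of fast fibres (chr1:172209894-172219868, minus strand), had 1786, 10102 and 16811 counts, or 73.8, 513 and 653 CPM. Its log2 fold change was -2.98 (SE 0.40, adjusted p 0.0227), and again both controls were several-fold above Stim1 cKO. DESeq2 called both genes, with adjusted p values of 9.01e-22 for Casq2 and 7.95e-17 for Casq1.

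Trdn, whose product anchors calsequestrin at the release channel, was the nearest to its controls of the 10. It lies at chr10:33080554-33476709 on the plus strand and had 6876, 6858 and 10336 counts, or 284, 348 and 402 CPM. Its log2 fold change was -0.40 (SE 0.32, edgeR adjusted p 0.424, DESeq2 adjusted p 0.398), so a difference between Stim1 cKO and the controls was not resolved.

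The release channels differed from each other. Ryr1, the skeletal muscle channel (chr7:29003344-29125179, minus strand), had 4303, 5117 and 10785 counts, or 178, 260 and 419 CPM. It is the one gene of the 10 for which Stim1 HT and Stim1 Ctrl were further apart (log2 ratio -0.69) than Stim1 cKO and Stim1 HT (-0.55). Its log2 fold change against the grouped controls was -0.93 (SE 0.41, edgeR adjusted p 0.192). Ryr3, a channel of lower abundance in muscle that is also found in brain (chr2:112631355-113217096, minus strand), had 217, 687 and 1386 counts, or 8.96, 34.9 and 53.9 CPM. Its level was 3.89-fold and 6.01-fold below the controls, with a log2 fold change of -2.31 (SE 0.38, edgeR adjusted p 0.0317) and a call by DESeq2 (adjusted p 1.61e-05).

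Among the genes of the voltage sensor, Stac3 and Cacna1s had wider gaps than Cacnb1. Cacna1s, the pore-forming subunit (chr1:136052750-136119822, plus strand), measured 43.5, 108 and 188 CPM from 1053, 2131 and 4826 counts. Its log2 fold change was -1.77 (SE 0.43, edgeR adjusted p 0.0667), and DESeq2 called it (adjusted p 0.000583). Stac3, the adaptor that couples the sensor to the channel (chr10:127501686-127508823, plus strand), measured 17.3, 49.3 and 54.3 CPM from 418, 972 and 1397 counts, and its controls were nearly level with each other. The log2 fold change of Stac3 was -1.59 (SE 0.26, edgeR adjusted p 0.0311, DESeq2 adjusted p 0.000433). Cacnb1, the beta subunit (chr11:98001508-98023034, minus strand), measured 33.7, 67.0 and 78.1 CPM from 815, 1319 and 2009 counts. It missed the 2-fold line against Stim1 HT (1.99-fold lower), with a log2 fold change of -1.11 (SE 0.27, edgeR adjusted p 0.0644, DESeq2 adjusted p 0.0150).

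Both junctophilins were lower in Stim1 cKO. Jph2, the junctophilin shared by heart and skeletal muscle (chr2:163336242-163397993, minus strand), measured 31.7, 132 and 144 CPM from 768, 2592 and 3703 counts. Its controls differed by a log2 ratio of only -0.13, and its log2 fold change was -2.12 (SE 0.29, edgeR adjusted p 0.0235, DESeq2 adjusted p 9.20e-09). Jph1, the skeletal form (chr1:16964560-17097889, minus strand), measured 20.3, 68.4 and 114 CPM from 492, 1348 and 2931 counts. Its log2 fold change was -2.17 (SE 0.41, edgeR adjusted p 0.0414, DESeq2 adjusted p 1.85e-05). Exons of Ryr1, Ryr3, Cacna1s, Cacnb1, Jph1 and Casq1 overlap genes on the opposite strand in GENCODE M21, and whether counting used the strand is not given in the sources used here, so part of their counts could belong to those genes.

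Stim1 HT was below Stim1 Ctrl for all 10 genes, by log2 ratios from -0.79 (Cacna1s) to -0.13 (Jph2). Their median was -0.34, beside 0.00 over all genes, and the share of all genes below Stim1 Ctrl was not counted. In summed level the ratio was -0.40 for the 10 genes. For muscle lists described below it was -0.24 (sarcomere genes), -0.44 (other triad and sarcoplasmic reticulum genes) and 0.18 (heart markers). None of the 10 differed by more than 2-fold between these controls, where 13.5% of all genes did. For 9 of the 10 the controls were closer to each other than either was to Stim1 cKO, with Ryr1 the exception. The share of all genes with this order was not counted. With 1 library each, this gap between the controls has no test.

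Levels were compared between genes per kilobase of exon (RPKM, from TMM-scaled CPM and the union exon length in GENCODE M21). In both controls the order from the top was Casq1, Casq2, Trdn and Jph2, with 335, 193, 42.9 and 33.8 RPKM in Stim1 Ctrl and 263, 153, 37.2 and 30.9 in Stim1 HT. In Stim1 cKO the order was Casq1 (37.8), Trdn (30.4), Casq2 (16.4) and Ryr1 (8.14), so that Trdn stood above Casq2. Ryr3 was the lowest in all 3 libraries, at 0.472, 1.84 and 2.84 RPKM. Without replicates it is not known which neighbours in these orders differ beyond the spread between mice.

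The proportions within the machinery differed between libraries as well. Per exon length, the ratio of Casq1 to Trdn was 1.25, 7.06 and 7.80. The ratio of Casq1 to Ryr1 was 4.65, 22.1 and 17.4. That of Cacna1s to Ryr1 was 0.816 in Stim1 cKO, with a 95% counting interval from 0.763 to 0.873, and 1.39 and 1.49 in the controls. Stac3 per Cacna1s showed no such split, with 1.02 in Stim1 cKO lying between its controls, 1.17 and 0.746.

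Within families of paired genes, the share per exon length was taken with 95% Wilson intervals, which cover counting error only. Ryr3 made up 5.48% of Ryr1 plus Ryr3 in Stim1 cKO (4.82 to 6.24%), with 13.4% (12.5 to 14.3%) and 12.9% (12.3 to 13.5%) in the controls. Casq2 made up 30.2% of both calsequestrins in Stim1 cKO (28.7 to 31.8%), with 36.8 and 36.5% in the controls. For both pairs the controls lay together and Stim1 cKO below them. The Jph2 share of the junctophilins did not separate in this way, with 64.7% in Stim1 cKO between 59.7% in Stim1 Ctrl and 69.3% in Stim1 HT.

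**Figure D2:**
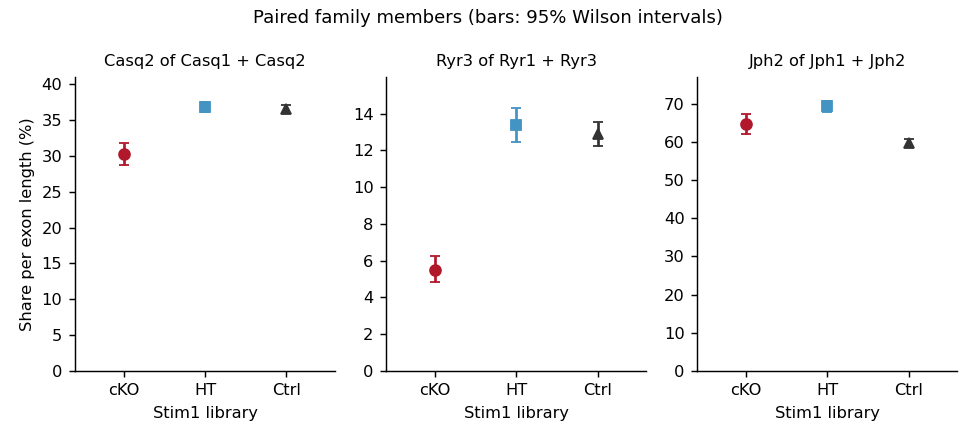
Share per exon length (%, each axis from 0) of Casq2 in Casq1 plus Casq2, Ryr3 in Ryr1 plus Ryr3, and Jph2 in Jph1 plus Jph2, with 1 point per library and 95% Wilson intervals for counting error. Stim1 cKO lies below both controls for Casq2 (30.2% against 36.8 and 36.5%) and Ryr3 (5.48% against 13.4 and 12.9%), and between them for Jph2.

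Other muscle genes were also lower in Stim1 cKO. Of 22 sarcomere genes of skeletal muscle, 21 were lowest in Stim1 cKO, the exception being Myh4 (473, 318 and 29.1 CPM), and 17 were more than 2-fold below each control. Their summed level was 7156, 28725 and 33899 CPM, and their median log2 fold change was -2.39. Of 6 myogenic transcription factors, 4 were more than 2-fold below each control (8.23% of all genes), among them Myog at 9.01, 64.0 and 60.4 CPM. The other two were Pax7, at 11.5, 8.12 and 9.87 CPM, and Mef2c, at 383, 351 and 448 CPM, which made up most of the summed level of the list (419, 488 and 602 CPM). Of 8 heart markers, Nppa and Nppb are not listed, Nkx2-5 had 7, 5 and 11 counts and Myl7 had 9, 8 and 22. The 6 that are listed summed to 67.5, 359 and 318 CPM. Most of this sum was Myl4, at 41.8, 300 and 226 CPM, so it says little about the other heart markers. Tnni3 (316, 58 and 55 counts) was the one higher in Stim1 cKO among the 5 tested. Smooth muscle markers summed to 507, 604 and 970 CPM, and 1 of the 7 was lower at an unadjusted p under 0.05, near the 13.4% of all genes. How far the amount of muscle in each sample accounts for the levels of the coupling genes was not tested.

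**Figure D3:**
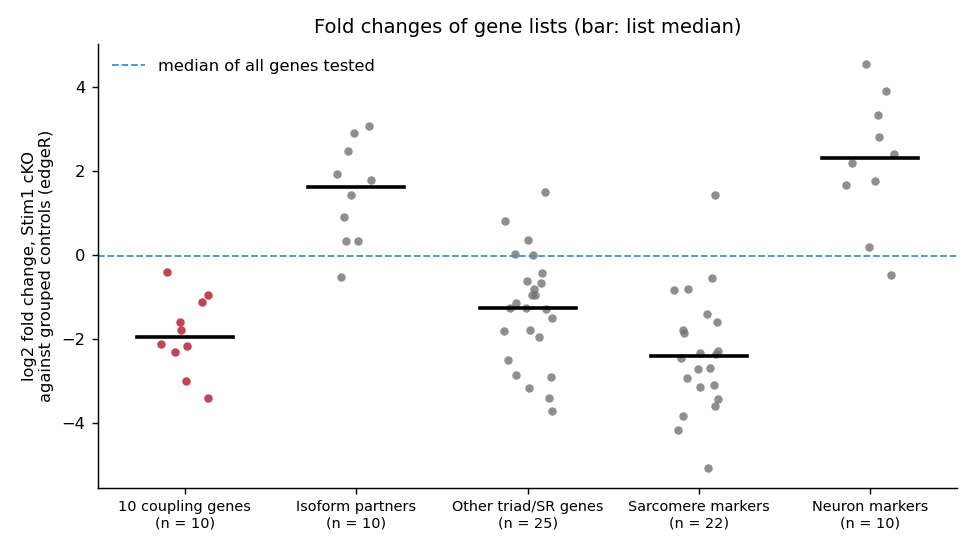
edgeR log2 fold change of Stim1 cKO against the grouped controls for each gene (point) of 5 lists: coupling genes, their isoform partners, other triad and sarcoplasmic reticulum (SR) genes, sarcomere genes and neuron markers. Black bars are the list medians, -1.94, 1.62, -1.26, -2.39 and 2.31, the dashed line is the median of all genes tested (-0.01), and all 10 coupling genes lie below 0.

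The coupling genes were next counted per 1000 counts of the sarcomere genes, which describes how they stood relative to other muscle RNA in the same library. Trdn measured 39.7, 12.1 and 11.8. Ryr1 measured 24.8, 9.04 and 12.4. Casq1 went the other way, with 10.3, 17.9 and 19.3, as did Casq2 with 6.26, 14.6 and 15.5. On this scale 5 genes stood above both controls in Stim1 cKO (Ryr1, Cacna1s, Cacnb1, Trdn and Stac3) and 2 were lower (Casq1 and Casq2). Jph2 (4.43, 4.58 and 4.24) and Ryr3 (1.25, 1.21 and 1.59) stayed near the controls. Without Acta1 and Ckm, the order of Cacna1s, Ryr3, Jph2 and, narrowly, Jph1 against a control turned, leaving 4 genes higher and 5 lower than both controls (Ryr3, Jph2, Casq1, Casq2 and Jph1, with Jph1 at 3.55 in both Stim1 cKO and Stim1 HT), whereas Ryr1, Cacnb1, Trdn, Stac3, Casq1 and Casq2 kept their side.

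**Figure D4:**
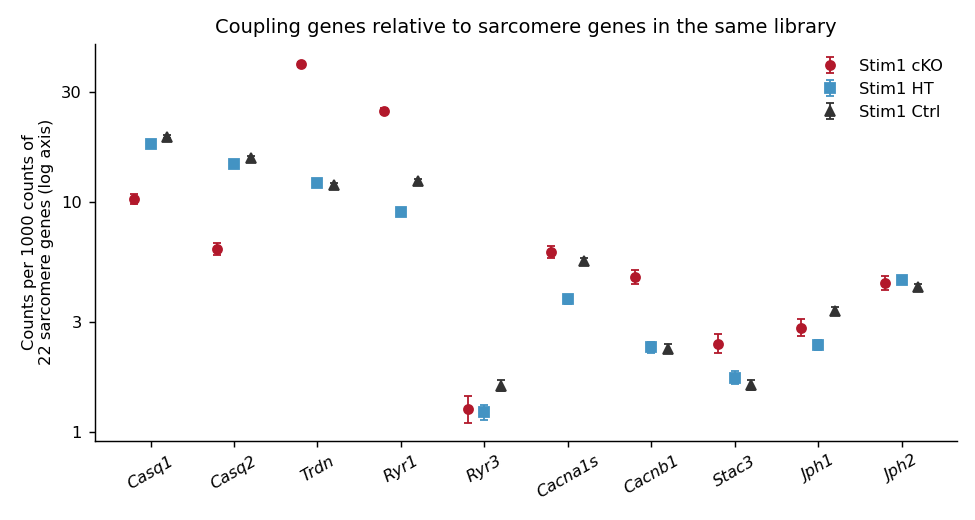
Counts of each coupling gene per 1000 counts of 22 sarcomere genes (log axis), with 1 point per library and 95% intervals for counting error. Trdn and Ryr1 in Stim1 cKO (39.7 and 24.8) lie above both controls, and Casq1 and Casq2 (10.3 and 6.26) below both.

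The relatives of these genes that are typical of heart, brain or other tissues were mostly higher in Stim1 cKO. Of 10 such partners (Ryr2, Cacna1c, Cacna1d, Cacnb2, Cacnb3, Cacnb4, Jph3, Jph4, Stac and Stac2), 9 were highest in Stim1 cKO (all but Stac) and the median log2 fold change was 1.62. edgeR called 0 of the 10, while 6 were higher at an unadjusted p under 0.05 (18.5% of all genes), 4 at an adjusted p under 0.05 with a fold over 2 (6.8% of all genes), and 3 by DESeq2 (6.3%). Without the filter edgeR called 2, Ryr2 and Cacna1d (3.28%). By level alone, 6 were more than 2-fold above each control (19.1% of all genes). Ryr2, the release channel of heart and neurons, had 403, 36 and 54 counts, or 16.6, 1.83 and 2.10 CPM. Its log2 fold change was 3.08 (SE 0.44, edgeR adjusted p 0.0253, DESeq2 adjusted p 9.17e-05), opposite to Ryr1 and Ryr3. Cacna1d, the CaV1.3 subunit of neurons and endocrine cells, measured 60.8, 12.2 and 9.60 CPM, with a log2 fold change of 2.48 (SE 0.27, edgeR adjusted p 0.0176). Cacnb4, a beta subunit of brain, measured 18.8, 1.88 and 3.11 CPM, and Jph4, a junctophilin of neurons, 39.0, 12.5 and 16.0 CPM. Cacna1c and Cacnb3, which are expressed widely, had log2 fold changes of 0.35 and 0.34 with edgeR adjusted p values of 0.547 and 0.389. Of the 10 neuron markers, whose summed level was higher in the same library, 8 were more than 2-fold above each control, and their part in the higher partners was not tested.

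With earlier results of these data known, another 25 genes of the triad and sarcoplasmic reticulum were chosen, and all were examined whatever their values. Of these, 20 were below both controls, 11 by more than 2-fold (8.23% of all genes), and the median log2 fold change was -1.26. edgeR called 0, with 14 lower (13.4% of all genes) and 1 higher (18.5%) at an unadjusted p under 0.05, 10 lower at an adjusted p under 0.05 with a fold over 2 (2.88%), and 11 lower by DESeq2 (5.26%). Without the filter edgeR called 5 lower (1.05%), and with upper-quartile factors Sln alone (0.0695%). Sln, sarcolipin, a small inhibitor of the calcium pump, measured 15.7, 207 and 205 CPM, with equal controls and a log2 fold change of -3.71 (SE 0.33, edgeR adjusted p 0.0146). Sypl2, mitsugumin 29 of the triad, measured 24.2, 214 and 295 CPM (log2 fold change -3.40, adjusted p 0.0186). Cav3, muscle caveolin, measured 13.1, 125 and 109 CPM, and Cacng1, the gamma subunit of the voltage sensor, 15.5, 101 and 121 CPM, which is a wider gap than those of Cacna1s and Cacnb1. Atp2a1, the fast calcium pump, was nearer to its controls, at 779, 1321 and 2414 CPM (log2 fold change -1.26, SE 0.52, adjusted p 0.172). Asph, whose junctin form is a relative of triadin, had a log2 fold change of -0.60 (SE 0.30, adjusted p 0.226). S100a1 was higher than each control, at 114, 55.7 and 24.8 CPM, and its controls were themselves more than 2-fold apart.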

How the data were processed

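RNA of the incisor enamel organ was sequenced in 3 libraries, 1 per genotype. The authors aligned trimmed reads with STAR and deposited raw counts per gene symbol; the aligner version, genome build, annotation, counting tool and strand setting are not given in the sources used here. The study's methods name a directional NEBNext kit and the labels a SMARTER kit.

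The main test was edgeR 4.0.16 (R 4.3.3) with TMM factors, filterByExpr (18702 genes), the quasi-likelihood test and Benjamini-Hochberg adjustment, with 1 residual degree of freedom and a common dispersion of 0.106. DESeq2 1.42.0, other scaling, filters and thresholds were alternatives. Both tools were tested on simulated data. Named genes were the 10 coupling genes, fixed lists of family partners and triad genes whatever their values, Stim1, and markers beside a result; 1 marker list is not reported as a whole. Xist, Ddx3y, Gnat1, Sag and Myh8 were chosen after their values were seen. These genes and lists were chosen with earlier results of these data known. Positions and exon lengths came from GENCODE M21 on GRCm38, and promoters from RefSeq. Wilson and ratio intervals and the limit of 3 counts cover counting error only. Leaving out a control gave log2 ratios without a test.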

Additional observations from a re-analysis of the deposited data

How the results depend on the processing

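No paired analysis was possible because each genotype had 1 library and no replicate numbers. All 10 coupling genes kept a fold change below 0 under every scaling, filter and tool tried. The number called (0 by edgeR) was 7 with DESeq2, 4 without a filter, where 1.05% of all genes were called lower and 3.28% higher, and 6 at an adjusted p under 0.05. For the isoform partners these counts were 3, 2 and 4 in place of 0, and for the other triad and sarcoplasmic reticulum genes 11, 5 and 10, with 1 (Sln) under upper-quartile factors. The calls therefore depend on the tool, the filter and the threshold, and the direction of the coupling genes does not. The median of the coupling genes ran from -2.14 to -1.63 when a control library was left out, and the number more than 2-fold lower from 7 to 9. Upper-quartile factors and library size alone moved the median of all genes to 0.12 and 0.25, and that of the coupling genes to -1.81 and -1.68. Without Acta1 and Ckm in the sarcomere reference, the log2 ratios of counts per sarcomere count turned to -0.21 for Ryr3 against Stim1 HT, -0.19 for Cacna1s against Stim1 Ctrl and -0.27 for Jph2 against Stim1 Ctrl. Another 22 shares and ratios moved by more than counting error without turning. Among them was every Casq2, Ryr3 and Jph2 share when counts were not divided by exon length, and the order of the libraries held. The lowest count of a coupling gene was 217, well above the limit of detection, and no genotype was replicated.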

Other observations

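Slow and fast fibre genes of the contractile apparatus were read beside the calsequestrin and ryanodine receptor shares. These contractile gene values were chosen after the data were seen. Per exon length, the slow troponin I gene Tnni1 made up 0.519, 2.44 and 3.71% of Tnni1 plus Tnni2 in the order Stim1 cKO, Stim1 HT, Stim1 Ctrl. The slow troponin T gene Tnnt1 made up 1.23, 4.36 and 3.95% of Tnnt1 plus Tnnt3, and Tnnc1 0.729, 1.49 and 1.70% of Tnnc1 plus Tnnc2. In all 3 pairs the share of the slow form was thus lower in Stim1 cKO than in both controls. Without division by exon length these shares were larger, such as 1.24, 5.68 and 8.48% for Tnni1, and remained lowest in Stim1 cKO. Myh7, the slow myosin heavy chain, measured 4.59, 123 and 181 CPM. The fast myosin genes did not move together, with Myh1 at 999.7, 1002 and 1882 CPM, Myh2 at 92.5, 318 and 682 CPM and Myh4 at 473, 318 and 29.1 CPM. Myh8, the perinatal myosin heavy chain, was not in the sarcomere list and measured 435, 5567 and 10159 CPM. Differences in fibre type and in muscle maturity were not told apart in these shares, and neither was tested. Actn3, a gene of fast fibres, measured 21.6, 289 and 319 CPM. Mybpc1 (slow) and Mybpc2 (fast) had log2 fold changes of -2.68 and -2.35. Lower levels in Stim1 cKO were therefore not confined to slow fibre genes. Ryr2 made up 6.63, 0.531 and 0.378% of Ryr1 plus Ryr2.

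Over the 10 coupling genes, log2 fold change and log2 exon length had a Pearson correlation of 0.52 and a Spearman correlation of 0.48, as a description with genes as points that share the same 3 libraries. The values were 0.23 and 0.12 over 22 sarcomere genes and 0.20 and 0.19 over 25 triad and sarcoplasmic reticulum genes. Over 18536 genes they were -0.05 and -0.01.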
